A study of Homo sapiens with 12 samples.

Results

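Shelterin and telomerase genes were followed in 4 human lines of ALCL (anaplastic large cell lymphoma, a tumour of T cells), each sorted into side population (SP) and main population (MP) cells. The members were listed by gene symbol: TERT, TERF1, TERF2, TINF2, ACD, POT1, TERF2IP, TEP1 and RTEL1, 9 genes in all. Of these, 7 had a probe set that the array annotation assigns to that gene alone, among 18417 named genes measured. TEP1 was not analysed here. RTEL1 shares its probe set with TNFRSF6B, so that probe set names no gene and its values are given as those of the pair. The members were selected on measured values, namely their levels in the 4 lines and the difference between SP and MP cells, above all TINF2 in SUDHL-1 against the other lines. Their values in these contrasts are therefore a description with no test.

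The lines SUDHL-1, DEL, Karpas299 and SUPM2 carry the NPM1-ALK fusion and were harvested in logarithmic growth with no drug given. All were stained with the DNA dye Hoechst and sorted into an SP fraction, which keeps little dye, and an MP fraction, which retains it. There were 12 arrays, 3 SP and 3 MP from SUDHL-1 and a single SP and MP pair from every other line. The unit is the log2 signal of a probe set on an Affymetrix array, so a difference of 1 is a 2-fold difference in signal. Nothing in the labels ties the SUDHL-1 arrays to separate cultures, so p-values within SUDHL-1 measure the spread between these arrays, which may be technical. P-values between the other lines rest on 1 SP and 1 MP array a line. They measure how far SP minus MP differs between these lines, with a variance drawn in part from all genes. They do not measure the spread between cultures of a line.

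Telomeres are the repeat-covered ends of chromosomes, and shelterin is the protein complex that covers them. TERF1 and TERF2 bind the double-stranded repeat, TERF2IP binds TERF2, POT1 binds the single-stranded overhang, ACD (the protein TPP1) joins POT1 to the complex and recruits telomerase, and TINF2 (the protein TIN2) holds TERF1, TERF2 and ACD together. TERT is the reverse transcriptase of telomerase, which lengthens telomeres on an RNA template encoded by TERC, and RTEL1 is a helicase that unwinds telomeric structures. Telomerase is silent in most resting somatic cells and active in activated lymphocytes and in most lymphoma lines.

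Array medians over named genes ranged from 5.25 to 5.37 on SUDHL-1 arrays and from 5.76 to 5.80 elsewhere, and this offset is part of every level set between SUDHL-1 and the rest. Of 9 measured genes that mark ALK-positive ALCL, 8 had a mean above the median gene, and their mean signal was 7.75 to 9.58 over the arrays. CD4 was dim in SUDHL-1 (3.45 to 4.15) and DEL (4.22 and 5.39), and CD2 in SUDHL-1 (3.39 to 3.81), DEL (4.38 and 4.42) and Karpas299 (4.34 and 4.54). Marker means of other cell types were lower on every array. They were 4.07 to 5.19 for B cells, 4.73 to 6.15 for myeloid cells and 3.32 to 4.04 for natural killer cells. Erythroid cells and platelets gave 3.97 to 4.63, and stromal and epithelial cells 4.20 to 5.37. Above the median gene lay the means of 0 of 5 B-cell, 2 of 6 myeloid and 1 of 5 natural killer markers. So did 0 of 4 erythroid and platelet and 2 of 7 stromal and epithelial markers. Myeloid CD68 ranged from 8.16 to 10.25 over the arrays. CSF1R averaged 7.86 (DEL), 7.54 (Karpas299), 8.27 (SUPM2) and 5.10 (SUDHL-1). Epithelial KRT18 averaged 7.72, 7.30, 7.45 and 5.78 in that order. The B-cell gene PAX5 averaged 6.71 for Karpas299. In SUDHL-1, all 19 listed genes of the G2 and M phases had a higher mean in SP than in MP cells (median 0.73). SP cells were also higher for 17 of 19 in Karpas299 (median 0.47) and in SUPM2 (median 0.99), and for 12 of 19 in DEL (median 0.29). Genes of the G1/S transition were lower in SP cells for 20 of 20 members in DEL and in Karpas299, but for 13 of 20 in SUDHL-1 (median -0.05) and 9 of 20 in SUPM2 (median 0.17). The part of the cell cycle in the telomere gene values was not tested. These are sorted bulk samples, in which fewer cells of a kind and less RNA per cell cannot be told apart.

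Promoter sequence is shown for 3 of the shelterin genes described below, TINF2, ACD and POT1. RefSeq promoter entries (GRCh38.p14) were found for 7 of the 9 members, but not for TERF1 and TERF2. The 250 bases before the listed start are given 5′ to 3′ on the gene's strand, with capitals marking matches to the motifs searched. TINF2 lies at chr14:24242675-24242924, ACD at chr16:67660261-67660510 and POT1 at chr7:124929826-124930075, all on the minus strand.
TINF2: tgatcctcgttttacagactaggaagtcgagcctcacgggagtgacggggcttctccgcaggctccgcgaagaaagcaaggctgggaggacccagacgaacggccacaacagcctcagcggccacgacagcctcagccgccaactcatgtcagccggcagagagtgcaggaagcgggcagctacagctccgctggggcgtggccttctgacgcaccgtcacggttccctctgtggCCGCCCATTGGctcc
ACD: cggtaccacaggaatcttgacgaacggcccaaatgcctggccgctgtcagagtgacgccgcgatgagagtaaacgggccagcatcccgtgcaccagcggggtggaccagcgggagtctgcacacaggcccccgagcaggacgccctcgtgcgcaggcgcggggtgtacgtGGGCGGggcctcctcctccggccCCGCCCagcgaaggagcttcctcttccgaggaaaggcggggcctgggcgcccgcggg
POT1: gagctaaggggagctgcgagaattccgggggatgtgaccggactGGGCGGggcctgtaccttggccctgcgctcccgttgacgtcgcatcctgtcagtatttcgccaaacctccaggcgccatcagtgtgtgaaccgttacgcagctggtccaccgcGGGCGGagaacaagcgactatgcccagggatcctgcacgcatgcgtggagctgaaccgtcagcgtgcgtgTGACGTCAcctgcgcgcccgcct

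The motifs were the E-box CACGTG, the CCAAT box CCAAT, the GC box GGGCGG, the cAMP response element TGACGTCA, the STAT site TTCNNNGAA and the telomere repeat TTAGGG, each on both strands. The TINF2 window held 1 CCAAT box and 1 GC box, which adjoin each other and lie 9 and 15 bases before the start. A second TINF2 start in the table lies downstream of this one. The ACD window held 2 GC boxes. The POT1 window, which also overlaps the antisense gene POT1-AS1, held 2 GC boxes and 1 cAMP response element, 23 bases before the start. Over 35116 promoter windows of this length, 32.0% held a CCAAT box, 42.6% a GC box and 1.65% a cAMP response element. For TERT, the stretch around its E-box, the letters that MYC and MAX bind, is shown because MYC is among the regulators described further on. It lies at chr5:1295214-1295243 on the minus strand, with the E-box in capitals, 163 bases before the start.
TERT: gaccgcgcttccCACGTGgcggagggactg

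An E-box was found in 6.34% of all windows, a STAT site in 6.57% and a telomere repeat in 7.94%. A match shows only that the letters are present, and no binding was measured.

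TINF2 differed between SP and MP cells in opposite directions in SUDHL-1 and in the other lines. In SUDHL-1 its signal was 7.88, 8.0 and 8.0 on the SP arrays and 7.34, 7.54 and 7.38 on the MP arrays. Every SP array lay above every MP array, with means of 7.96 ± 0.07 and 7.42 ± 0.11 (SD, n = 3 each) and a difference of 0.54. In DEL the SP array stood at 7.79 and the MP array at 8.43. Karpas299 gave 7.91 in SP and 8.31 in MP cells, and SUPM2 gave 6.68 and 7.64. SP cells were therefore lower in 3 of 3 of these lines, by -0.64, -0.41 and -0.96, a mean of -0.67 ± 0.28 (SD, n = 3 lines). The gap between SUDHL-1 and the mean of the other lines was 1.21.

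Leaving out any single SUDHL-1 array kept the TINF2 difference in that line between 0.50 and 0.60, and the gap to the other lines between 1.16 and 1.27. Among all named genes, 54 (0.293%) combined SP arrays wholly above MP arrays in SUDHL-1 with lower SP signal in the other 3 lines, and 83 (0.451%) showed the mirror image. These shares describe the contrast that brought TINF2 into view and carry no evidence about it. Averaged over the 4 lines the TINF2 difference was -0.37 ± 0.64 (SD, n = 4 lines), and without SUPM2 it was -0.17.

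**Figure D1:**
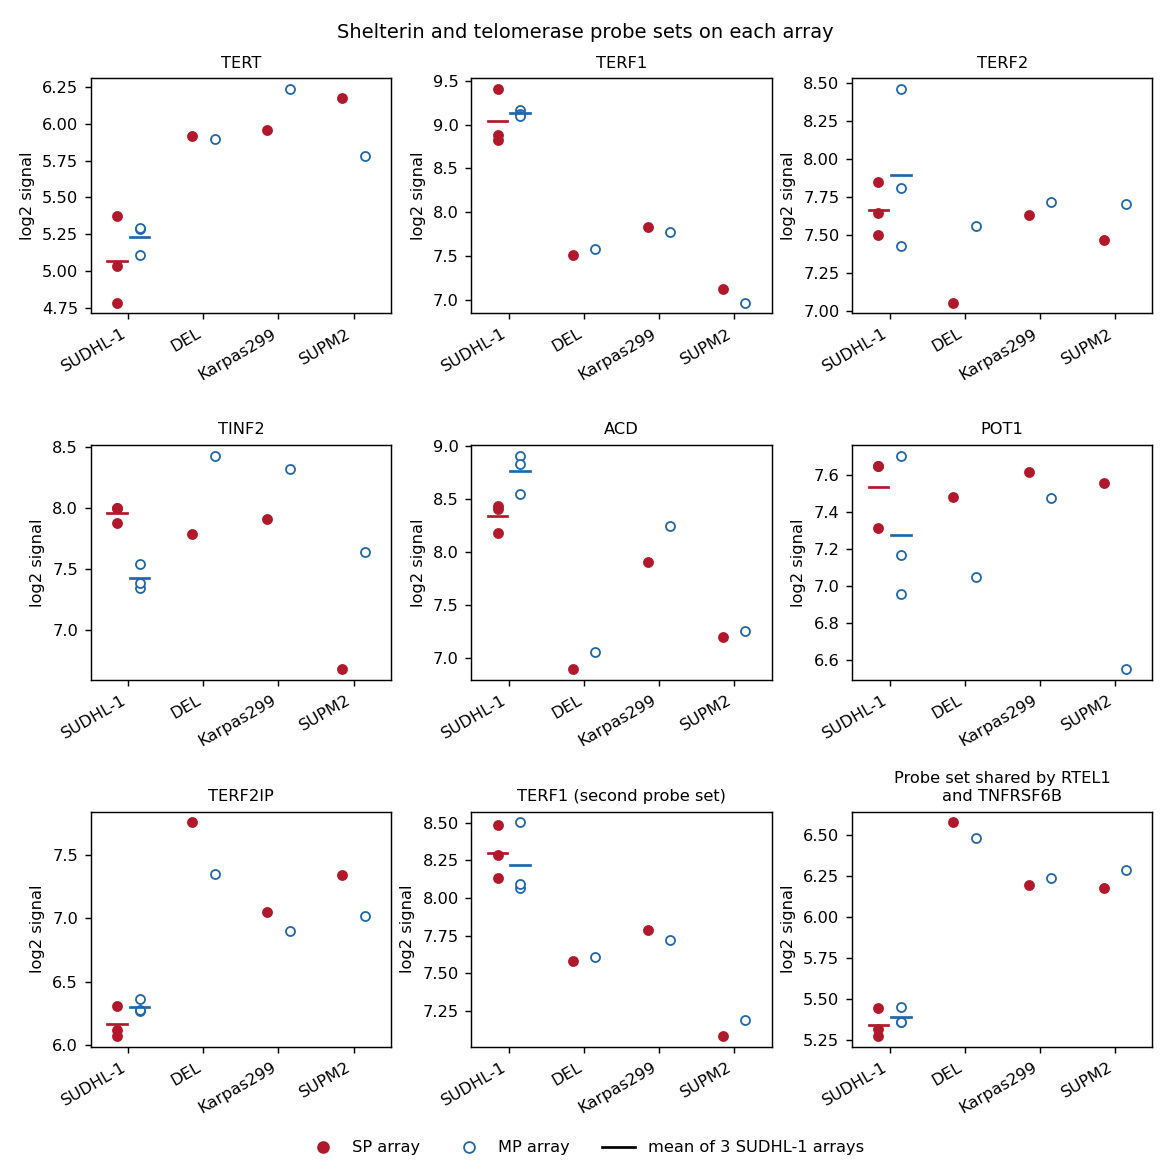
Log2 signal of each shelterin and telomerase probe set (vertical axes, 1 panel a probe set) on the 12 arrays, by cell line, with SP arrays filled, MP arrays open and short lines for the means of 3 SUDHL-1 arrays. TINF2 SP points lie above the MP points in SUDHL-1 (7.88 to 8.0 against 7.34 to 7.54) and below them in DEL, Karpas299 and SUPM2.

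ACD, the TPP1 gene, was lower in SP than in MP cells in each of the 4 lines. In SUDHL-1 it stood at 8.40, 8.44 and 8.18 on the SP arrays and at 8.91, 8.55 and 8.83 on the MP arrays, so that the groups did not overlap. The means were 8.34 ± 0.14 and 8.76 ± 0.19 (SD, n = 3 each), a difference of -0.42. The other lines gave 6.89 in SP and 7.06 in MP cells for DEL, 7.90 and 8.24 for Karpas299, and 7.19 and 7.25 for SUPM2. The average difference was -0.25 ± 0.16 (SD, n = 4 lines). The sign of ACD was negative in 4 of 4 lines and with any array or line left out.

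POT1, which binds the single-stranded overhang, was higher in SP cells in each line. Its SUDHL-1 signal was 7.32, 7.65 and 7.65 on the SP arrays and 7.17, 7.70 and 6.96 on the MP arrays, so the groups overlapped. SUPM2 showed the widest gap, with 7.56 in SP and 6.55 in MP cells. DEL stood at 7.48 and 7.05, and Karpas299 at 7.62 and 7.47. The average was 0.46 ± 0.38 (SD, n = 4 lines). Without SUPM2 it was 0.28. POT1 and its partner ACD thus had opposite signs in all 4 lines.

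TERF2, which binds the duplex repeat and guards against end fusion, was lower in SP cells on average in each line. SUDHL-1 SP arrays stood at 7.50, 7.64 and 7.85 and MP arrays at 7.81, 7.42 and 8.46, and the groups overlapped. This difference of -0.23 rested on MP array 3, without which it was 0.05. DEL gave 7.05 in SP and 7.56 in MP cells, Karpas299 7.63 and 7.72, and SUPM2 7.47 and 7.70. The average over lines was -0.26 ± 0.17 (SD, n = 4 lines).

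TERF2IP, the RAP1 protein that rides on TERF2, was higher in SP cells of DEL, Karpas299 and SUPM2, at 7.76 against 7.35, 7.05 against 6.90 and 7.34 against 7.02. In SUDHL-1 it was 6.07, 6.31 and 6.11 in SP and 6.27, 6.27 and 6.36 in MP cells, with overlapping groups and a difference of -0.14. Against the mean of 0.29 ± 0.13 (SD, n = 3 lines) in the other lines, SUDHL-1 differed by -0.43.

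TERF1, the second duplex-binding protein, has 2 probe sets. The brighter one gave 8.88, 9.40 and 8.83 on SUDHL-1 SP arrays and 9.17, 9.12 and 9.10 on MP arrays, a difference of -0.09. The dimmer one gave 8.13, 8.48 and 8.29 against 8.50, 8.07 and 8.09, a difference of 0.08. The sign thus changed with the probe set, and the groups overlapped on both. Over the 4 lines the brighter set averaged 0.02 ± 0.12 (SD, n = 4 lines).

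TERT had no common direction between SP and MP cells. SUDHL-1 SP arrays stood at 5.04, 4.79 and 5.38 and MP arrays at 5.28, 5.30 and 5.11, a difference of -0.16 with overlapping groups. DEL gave 5.92 and 5.90, Karpas299 5.96 and 6.24, and SUPM2 6.17 and 5.78 in SP and MP cells. SP cells were higher in 2 of 4 lines, and the average was -0.0081 ± 0.29 (SD, n = 4 lines). The probe set shared by RTEL1 and TNFRSF6B gave SP minus MP differences between -0.11 (SUPM2) and 0.09 (DEL), with SUDHL-1 at -0.05.

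**Figure D2:**
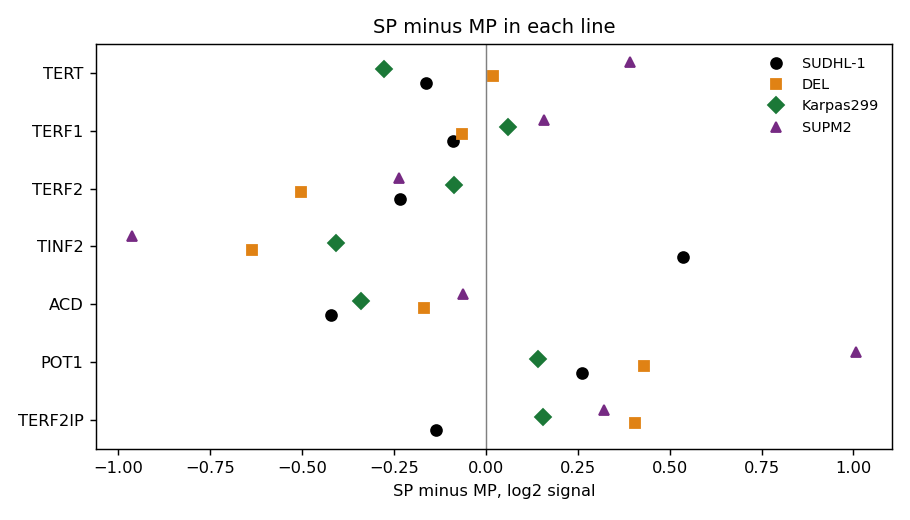
SP minus MP difference in log2 signal (horizontal axis) for the 7 measured genes, with 1 symbol a line and the SUDHL-1 symbol a difference of means of 3 arrays. POT1 lies right of 0 in all 4 lines, ACD and TERF2 left of it, and TINF2 at 0.54 for SUDHL-1 but between -0.41 and -0.96 for DEL, Karpas299 and SUPM2.

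Counted over all members, 2 of 7 were higher and 5 of 7 lower in SP cells of SUDHL-1, with a median difference of -0.14 against -0.0002 over all genes. SP arrays of SUDHL-1 lay wholly above MP arrays for TINF2 and wholly below for ACD, against 3.74% and 3.42% of all genes, or 7.16% in either direction. SP was below MP in all 4 lines for ACD and TERF2 and above it for POT1, against 5.65% and 8.09% of all genes, or 13.7% of 1 sign. Since SP against MP was in view when the set was chosen, nothing is read from these shares.

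The levels of the members among DEL, Karpas299 and SUPM2 rest on 1 SP and 1 MP array a line, so each pair of lines was compared on its SP arrays and on its MP arrays. ACD was highest in Karpas299 (mean of SP and MP 8.07), followed by SUPM2 (7.22) and DEL (6.97). DEL minus Karpas299 was -1.01 on SP and -1.19 on MP arrays, and Karpas299 minus SUPM2 was 0.71 and 0.99. The pair of lower lines differed by less, at -0.30 and -0.20 for DEL minus SUPM2.

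TINF2 stood at 8.11 in DEL and in Karpas299 and at 7.16 in SUPM2. DEL minus Karpas299 was -0.12 on SP and 0.11 on MP arrays, so these lines had no order. SUPM2 lay below both, with differences of 1.11 and 0.79 for DEL and of 1.23 and 0.68 for Karpas299 on SP and MP arrays. TERF1 was ordered Karpas299 (7.81), DEL (7.55) and SUPM2 (7.05), and each step had the same sign on SP and MP arrays. On the dimmer TERF1 probe set the same order was seen, at 7.75, 7.59 and 7.13. TERF2IP was ordered DEL (7.56), SUPM2 (7.18) and Karpas299 (6.98), again with the same signs on SP and MP arrays, and the ends differed by 0.71 and 0.46.

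TERF2 stood at 7.68 in Karpas299, 7.59 in SUPM2 and 7.30 in DEL, POT1 at 7.55, 7.05 and 7.26, and TERT at 6.10, 5.98 and 5.91. The SP and MP arrays gave opposite signs for TERT between DEL and SUPM2 (-0.26 and 0.12) and between Karpas299 and SUPM2 (-0.21 and 0.45), and for POT1 between DEL and SUPM2 (-0.08 and 0.50). The highest and lowest line differed by over 1 for 1 of 7 members, ACD, against 17.6% of all genes. Since levels in the lines were in view when the set was chosen, nothing is read from that share.

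**Figure D3:**
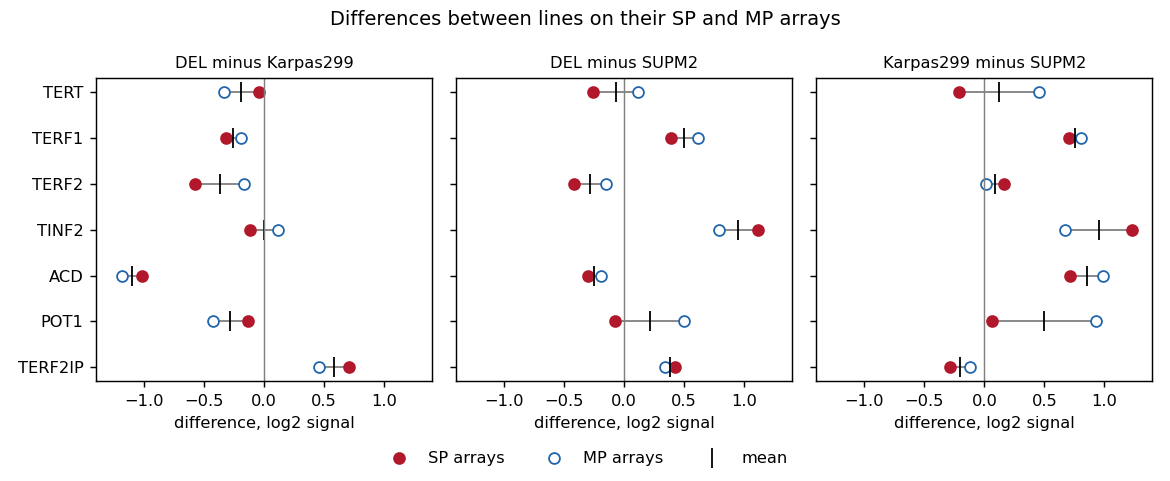
Differences in log2 signal (horizontal axes) between pairs of lines for the 7 measured genes, on the SP arrays (filled), on the MP arrays (open) and as their mean (tick), 1 panel a pair. ACD lies near -1 for DEL minus Karpas299 on both arrays (-1.01 and -1.19), and TINF2 lies right of 0 for both lines minus SUPM2.

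SUDHL-1 was set against the mean of the other lines as a description. TERF1 was higher in SUDHL-1 by 1.61, with arrays at 8.83 to 9.40 against 6.97 to 7.84. ACD was higher by 1.13, at 8.18 to 8.91 against 6.89 to 8.24, and the arrays overlapped. TERF2IP was lower, at -1.0, at 6.07 to 6.36 against 6.90 to 7.76, and TERT by -0.85, at 4.79 to 5.38 against 5.78 to 6.24. TERF2, POT1 and TINF2 differed by 0.26, 0.12 and -0.10 with overlapping arrays. The shared RTEL1 and TNFRSF6B probe set stood at 5.28 to 5.46 in SUDHL-1 and 6.18 to 6.58 elsewhere.

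These gaps moved with the scaling of the arrays. Over all genes, the median of the gene differences, SUDHL-1 minus the other lines, was -0.33 as deposited and -0.05 after quantile normalization. It was 0.13 once each array was centred on its median. On those scales TERF1 stood at 1.65 and 2.07, ACD at 1.20 and 1.59, TERF2IP at -0.76 and -0.55, and TERT at -0.49 and -0.39. The direction of these 4 genes was the same under the 3 scalings, whereas TINF2 went from -0.10 to -0.0087 and 0.36. The dimmer TERF1 probe set gave 0.77 in place of 1.61. Relative to its array's median, TERT was -0.46 to 0.0072 in SUDHL-1 and 0.0004 to 0.47 elsewhere, so the array groups met on that scale. ACD and TERF2, whose arrays overlapped as deposited, did not on that scale, at 2.81 to 3.63 against 1.10 to 2.48 and 2.08 to 3.12 against 1.26 to 1.96. As deposited, TERF1 and ACD were past 1 upward and TERF2IP downward, against 7.34% and 14.1% of all genes, or 21.5% together. SUDHL-1 arrays lay wholly above the others for TERF1 and wholly below for TERT and TERF2IP, against 7.51% and 29.1% of all genes, or 36.6% together. Nothing is read from these shares. The sample numbers of the SUDHL-1 arrays run apart from those of the other arrays. Cell line, array set and array scale therefore cannot be told apart in contrasts of SUDHL-1 with the other lines.

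**Figure D4:**
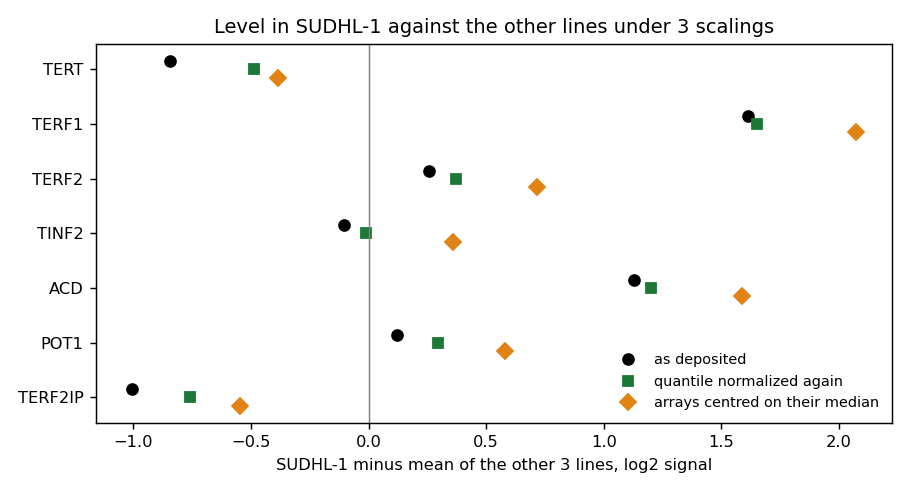
Level in SUDHL-1 minus the mean of DEL, Karpas299 and SUPM2 (horizontal axis, log2 signal) for the 7 measured genes, as deposited, after quantile normalization and after centring each array. TERF1 and ACD lie above 1 and TERT and TERF2IP below 0 under all 3 scalings, while TINF2 lies on both sides of 0 (-0.10 and 0.36).

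Genes with the profile most like that of TERT over the 12 arrays were PDE4A, FAM83E, UCHL1, IRS2 and LRRC24, with Pearson correlations of 0.99, 0.98, 0.98, 0.98 and 0.97 among 13811 genes above the lowest 25% of signals. Those most like TINF2 were FBXO45, ADCY3, KIAA0930, C11orf24 and PCIF1, at 0.86, 0.85, 0.84, 0.84 and 0.83. Within the 6 SUDHL-1 arrays the TINF2 correlations were 0.21, 0.44, 0.34, 0.15 and 0.91, and within the other 6 arrays 0.96, 0.92, 0.98, 0.93 and 0.88. The arrays share lines and scale, so these values describe likeness only.

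Genes that work with the members, listed with earlier results of these data known, were tested with limma between lines. Each line gave 1 SP and 1 MP array, which are 2 fractions of 1 line and not replicate cultures. The residual, with 2 degrees of freedom, is how far SP minus MP differs between lines. For the p-values, limma drew the variance of each gene in part from all genes. Of all genes, 2.41% were called between DEL and Karpas299, 4.72% between DEL and SUPM2 and 6.81% between Karpas299 and SUPM2. Several partners of TERT in the assembly of telomerase were lower in SUPM2. DKC1, the dyskerin that binds the telomerase RNA, stood at 9.98 and 10.13 in DEL (SP and MP), 10.02 and 9.56 in Karpas299 and 8.36 and 7.81 in SUPM2. SUPM2 was lower than DEL by 1.97 (limma adjusted p = 0.0201) and than Karpas299 by 1.70 (adjusted p = 0.0236). RUVBL1, an ATPase that helps to assemble telomerase, was lower in SUPM2 by 1.54 (adjusted p = 0.0193) and 1.57 (adjusted p = 0.0152). NAF1, an early assembly factor, exceeded SUPM2 by 1.83 in DEL (adjusted p = 0.0462), at 6.85 and 7.62 against 5.63 and 5.19. PARN, which trims the RNA end, was higher in Karpas299 than in SUPM2 by 0.97 (adjusted p = 0.0398). It was not lower in SUPM2 than in DEL, at means of 8.48 and 8.38. SHQ1, a dyskerin chaperone, was higher than in SUPM2 by 1.14 in DEL and 1.16 in Karpas299 without passing (adjusted p = 0.0988 and 0.0806).

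Of 11 assembly genes, 3 passed as higher in DEL than in SUPM2 and 3 in Karpas299 than in SUPM2, against 3.25% and 4.29% of all genes in that direction. Whatever the test, 7 and 10 of the 11 had a higher mean, with medians of 0.28 and 0.37 against -0.09 and -0.05 over all genes. The list was made with earlier results known, and nothing is read from these shares. TERC, the RNA template, gave 9.43 and 10.02 in DEL, 10.24 and 9.67 in Karpas299 and 10.85 and 10.17 in SUPM2. G1/S genes moved with this contrast, as 20 of 20 were lower in SUPM2 than in either line, with medians of 1.93 and 2.15 for DEL and Karpas299 over SUPM2. Their part in the DKC1 and RUVBL1 differences was not tested.

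STN1, a subunit of the CST complex that ends telomerase action and fills in the C-rich strand, was low in Karpas299. It gave 5.85 in SP and 4.52 in MP cells there, against 7.82 and 7.45 in DEL and 7.99 and 7.94 in SUPM2. Karpas299 was lower than DEL by 2.45 (limma adjusted p = 0.0347) and than SUPM2 by 2.78 (adjusted p = 0.0162). SUDHL-1 arrays stood at 6.31 to 7.49, above both Karpas299 arrays and overlapping those of DEL. Among all genes, 1.35% passed as higher and 1.06% as lower in DEL than in Karpas299, and 2.52% as lower in Karpas299 and 1.47% as lower in DEL than in SUPM2. CTC1, its large partner, PIF1, a helicase that removes telomerase, and PINX1, a telomerase inhibitor, differed between Karpas299 and SUPM2 by -0.23, -0.12 and 1.49 without passing (adjusted p = 0.766, 0.776 and 0.102).

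Telomere-processing genes that work with shelterin, among them nucleases and helicases, also included genes that were lower in SUPM2. Of 16 such genes, 11 had a higher mean in DEL and 12 in Karpas299 than in SUPM2. The test was passed by 6 in each pair, against 3.25% and 4.29% of all genes. In both pairs these were EXO1, BLM, DCLRE1B, WRN, FEN1 and RIF1. This list too was made with earlier results known, and nothing is read from the shares. EXO1, the exonuclease that resects ends, stood at 8.47 and 9.58 in DEL, 8.52 and 9.05 in Karpas299 and 5.78 and 4.54 in SUPM2 (adjusted p = 0.0296 and 0.0279 in limma). DCLRE1B, the Apollo nuclease that TERF2 recruits, was higher by 1.95 in DEL and 2.00 in Karpas299 (adjusted p = 0.0196 and 0.0149). Its SUPM2 signal was dim, at 4.50 in SP and 3.60 in MP cells. The lowest 25% of genes had means under 4.22. The helicases BLM and WRN were higher in Karpas299 by 2.92 and 1.96 (adjusted p = 0.00787 and 0.0092). Many of these genes are also replication genes, and the G1/S values given above moved with them. The part of the cell cycle in these differences was not tested.

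Among 14 measured transcription factors known to act on TERT, MYC was higher than in SUPM2 by 2.38 in DEL and 1.85 in Karpas299 (limma adjusted p = 0.0259 and 0.0373). Its signal was 10.37 and 10.54 in DEL, 10.46 and 9.40 in Karpas299 and 8.15 and 8.0 in SUPM2. MXD1, which competes with MYC for MAX, was lower in Karpas299 than in SUPM2 by -1.91 (adjusted p = 0.0298), and E2F1 and STAT5A were higher by 1.37 and 1.36 (adjusted p = 0.0373 and 0.0218). ETS1 was higher in DEL than in Karpas299 by 1.29 and than in SUPM2 by 1.57 (adjusted p = 0.0365 and 0.0174), and STAT5A was lower in DEL than in Karpas299 by -1.15 (adjusted p = 0.0499). TERT, with the E-box shown above, differed by -0.07 between DEL and SUPM2 and by 0.12 between Karpas299 and SUPM2.

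**Figure D5:**
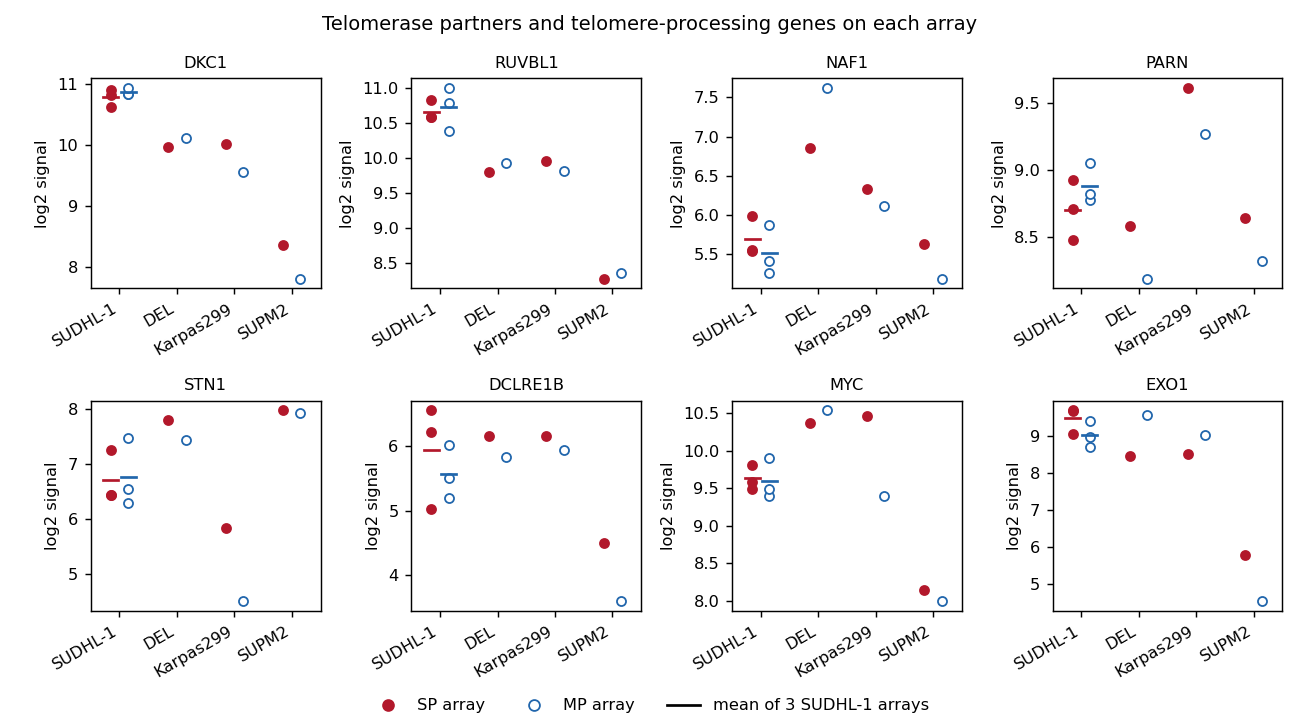
Log2 signal (vertical axes) of 8 genes, from the telomerase and telomere-processing lists and the TERT regulator MYC, on the 12 arrays by line, with SP arrays filled, MP arrays open and short lines for means of 3 SUDHL-1 arrays. DKC1, RUVBL1, DCLRE1B, MYC and EXO1 lie lowest in SUPM2, and STN1 lies lowest in Karpas299 (5.85 and 4.52).

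Between SP and MP cells of SUDHL-1, limma called 0 of 18417 genes (0%) at an adjusted p under 0.05, none on these lists, and 577 (3.13%) at an unadjusted p under 0.05. Over the 4 lines it also called 0, with 904 (4.91%) unadjusted, and for SUDHL-1 against the other lines 0, with 661 (3.59%). The assembly list had 6 of 11 genes higher in SP cells and a median of 0.03, with TERC at 0.44, SHQ1 at -0.29, WRAP53, which carries telomerase to Cajal bodies, at 0.20 and PARN at -0.18. Genes that limit telomerase had 1 of 4 higher and a median of -0.09, with PINX1 at -0.23. Telomere-processing genes had 8 of 16 higher and a median of -0.01, with EXO1 at 0.44, WRN at -0.43, ERCC4, a nuclease subunit, at -0.41 and DCLRE1B at 0.37. Regulators of TERT had 8 of 14 higher and a median of 0.03, with HIF1A at -0.54, ETS1 at -0.41, MXD1 at 0.36 and GABPB1 at 0.30. Each of these genes had an adjusted p of 1.00. Several values rested on 1 array. TERC was at -0.07 without MP array 3, and without SP array 3 PINX1 was at 0.17, MXD1 at -0.19, WRN at -0.09 and HIF1A at -0.21. MXD1 was also at -0.06 without MP array 2, SHQ1 at -0.08 without MP array 1, PARN at -0.07 without SP array 3 and DCLRE1B at 0.05 without SP array 2.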

How the data were processed

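Gene expression was measured in sorted SP and MP cells of 4 ALCL lines with 12 Affymetrix arrays. Per the submitters' processing notes the authors used RMA, and what they deposited is 1 log2 signal per probe set and array. No version, build or joint normalization is given in the sources used here. All 12 columns were used. The number of arrays limits the precision.

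Of 33297 probe sets, 19460 had 1 gene symbol in the platform annotation, 1754 had several and 12083 had none. Symbols were checked against RefSeq (GRCh38.p14) by Entrez identifier, and 0 changed. The probe set with the highest mean stood for each of the 769 genes with several, leaving 18417 genes. Replicate arrays correlated at 0.973 to 0.984.

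limma 3.58.1 in R 4.3.3 (lmFit, eBayes) fitted SP minus MP in SUDHL-1 (6 arrays), 1 SP minus MP difference a line (SUDHL-1 averaged first), SUDHL-1 against the other lines in that difference (12 arrays, line as block), and pairs of DEL, Karpas299 and SUPM2 (6 arrays, population as covariate). P-values were two-sided and Benjamini-Hochberg adjusted over all genes, with a threshold of 0.05. The planned fits covered the members too. After their values were seen, levels and SP minus MP contrasts were read as part of how the members were chosen, and no p is given for them. Each fit was tested on simulated data. Alternatives changed the scaling, the filter on dim genes, the probe set rule, the variance model and the samples. The labels do not say that a SUDHL-1 replicate number pairs an SP with an MP array. Correlations of deviations between arrays of the same number were -0.13 to -0.0037. Deviations from a group mean are tied to each other, so these values cannot show whether the arrays were paired.

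The members and the gene lists were chosen with earlier results of these data known. All members are named. From each list, genes past the threshold and up to 4 with the largest difference are named. For TERT and TINF2, the 5 genes with the highest correlation are given.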

Additional observations from a re-analysis of the deposited data

Results flagged for a closer look

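TINF2 differed between SP and MP cells in 1 direction on every SUDHL-1 array (SP above MP, difference 0.54) and in the opposite direction in each of DEL, Karpas299 and SUPM2 (-0.64, -0.41 and -0.96). The contrast was in view when the gene was chosen, so no test of the difference between the lines is given.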

How the results depend on the processing

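The SP minus MP fit in SUDHL-1 called 0 genes under each of 13 alternatives, that over the 4 lines 0 under 15, and the line-dependent difference 0 under 11. With the replicate number as a block, 0 genes were called in SUDHL-1, as without it. Calls between lines ran from 392 to 502, 785 to 874 and 1177 to 1264. The number of members past 1 between SUDHL-1 and the other lines was 3, or 1 to 3 with an array or line left out (1 without DEL). After quantile normalization the sign changed for TERT over the 4 lines (0.0058), TINF2 between DEL and Karpas299 (0.0107) and TERF2 between Karpas299 and SUPM2 (-0.0352). In level against the other lines, TINF2 stood at 0.36 with arrays centred, at 0.50 on SP arrays alone and at -0.70 on MP arrays alone. POT1 stood at -0.0129 on SP arrays alone. The second TERF1 probe set, an alternative chosen after seeing the data, gave 0.0809 in SUDHL-1 and 0.10 for the line-dependent difference. With an array or line left out, values crossed 0 for TERF1 (-0.27 to 0.0165) and TERF2 (-0.47 to 0.0478) in SUDHL-1, TERT (-0.14 to 0.0819) and TERF1 (-0.0309 to 0.0512) over the 4 lines, TERF2 in the line-dependent difference (-0.19 to 0.32) and TINF2 in level (-0.42 to 0.0567). The cause of these changes was not tested. Single SP and MP arrays of DEL, Karpas299 and SUPM2 and the absence of detection calls limit all values.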

Other observations

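Checkpoint and end-joining genes that shelterin holds back numbered 13, of which 10 had a lower mean in SP than in MP arrays of SUDHL-1 (median -0.08, against -0.0002 over all genes), and 0 passed limma's test. MDC1, a damage adaptor, stood at 0.44, LIG4, the ligase of end joining, at -0.43, TP53BP1 at -0.34 and the kinase ATR at -0.19. Without SP array 3, TP53BP1 was at 0.05 and ATR at 0.0081, and without MP array 3 ATR was at 0.05. Averaged over the 4 lines, 11 of 13 were lower, with a median of -0.14 and CHEK2, a checkpoint kinase, at -0.49 (limma adjusted p = 0.918). CHEK2 gave 5.04 in SP and 5.94 in MP cells of DEL, and 5.74 and 6.87 in Karpas299. It gave 5.18 and 5.06 in SUPM2, and a difference of -0.04 in SUDHL-1. The 13 genes were also listed with earlier results known, and nothing is read from the counts. Between lines, RNF168, a ubiquitin ligase of the damage response, was higher than in SUPM2 by 1.20 in DEL and 1.38 in Karpas299 (limma adjusted p = 0.0354 and 0.0216).

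Among 9 measured chromatin genes linked to telomeres, ASF1B, a replication histone chaperone, was higher than in SUPM2 by 1.83 in DEL and 3.08 in Karpas299 (limma adjusted p = 0.0472 and 0.0123). CBX5, the HP1 protein of heterochromatin, was higher by 0.93 in Karpas299 (adjusted p = 0.0437). ATRX, which deposits histone H3.3 at telomeres, had a difference of -0.73 between SP and MP cells of SUDHL-1 (adjusted p = 1.00; -0.14 without MP array 3) and of -0.85 between Karpas299 and SUPM2 (adjusted p = 0.0708).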
